A study of Homo sapiens with 12 samples.

Results

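Gene expression after knockdown of the coactivator SRC-1 was compared with that after a non-targeting siRNA in cells that had received no hormone. The comparison rests on 6 of the 12 arrays of the study and is described across the 19460 probe sets, of 29094 tested, that carry 1 gene symbol. These stand for 18417 genes. It asks which transcripts depended on the SRC-1 siRNA when estradiol was not added.

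All groups are U2OS-ERα cells, a human osteosarcoma line that carries estrogen receptor α, grown without phenol red in charcoal-stripped serum. The group NT_V holds 3 biological replicates given 50 nM of a non-targeting siRNA pool, and siSRC-1_V holds 3 given 50 nM of a pool against SRC-1, the product of NCOA1. Both then received ethanol vehicle for 3 h. NT_E and siSRC-1_E, also of 3 replicates each, had the same siRNA pools and estradiol for 3 h. The siRNA was delivered with a lipid reagent, and the medium was changed the next day. Whether the line is 1 clone is not given in the sources used here. With 1 pool per target, the effects of less NCOA1 and other effects of that pool cannot be told apart. RNA was hybridised to Affymetrix Human Gene 1.0 ST arrays, and the spread behind each p-value is that among replicates within the 4 groups, pooled in 1 fit.

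SRC-1 is a member of the p160 family, proteins that nuclear receptors recruit to DNA when a ligand is bound. It brings histone acetyltransferases such as p300 and CBP to the gene, and it is also known to bind factors that need no hormone, among them AP-1 and NF-kB. Those factors drive interleukins, chemokines and proteases, which osteosarcoma cells are known to secrete.

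The arrays had medians of 6.85 to 6.92 in the deposited log2 values. Mesenchymal markers, 7 of 8 measured, had a list mean of 10.06 to 10.15 in NT_V arrays and 9.94 to 10.05 in siSRC-1_V arrays. Of these, SPP1 and ALPL were lower after the knockdown and are described among the osteoblast genes. Of the 13 measured epithelial, blood and endothelial markers none was called by limma, and 3, PTPRC, PECAM1 and EMCN, were dimmer than the lower quartile, which was 5.17 to 5.24 over the arrays. Their list means in NT_V arrays were 6.66 to 6.81 (epithelial), 5.24 to 5.35 (blood) and 5.18 to 5.30 (endothelial). The epithelial markers EPCAM, at a mean of 7.35 in NT_V, and KRT14, at 7.80, exceeded the array medians. ESR1, which encodes the receptor itself, read 12.18, 12.16 and 12.14 in NT_V replicates 1 to 3 and 12.11, 12.09 and 12.14 in siSRC-1_V. Its difference of -0.05 ± 0.04 log2 (SE) did not pass the test (limma adjusted p = 0.674). A lower signal in bulk RNA can come from fewer cells with the transcript or from less of it per cell, which cannot be told apart.

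NCOA1, the gene targeted, read 8.81, 8.72 and 8.83 log2 in the NT_V arrays and 6.18, 5.62 and 5.78 in the siSRC-1_V arrays. The groups did not overlap, and replicate 1 of the knockdown kept the highest signal. The knockdown left 13.2% of the non-targeting level (limma adjusted p = 7.3e-07). The paralogue NCOA2, which encodes SRC-2, read 8.60 ± 0.09 log2 (SD, n = 3) and 8.69 ± 0.10 and was not called (difference 0.09, 95% interval -0.05 to 0.23, adjusted p = 0.621). NCOA3, the gene of SRC-3, is not analysed here. Of 17 measured p160 partners, NCOA6, a coactivator found in histone methyltransferase complexes, was the other member that fell, by 0.27 log2 (adjusted p = 0.00748), while the median of the list was -0.01.

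More transcripts fell than rose. A probe set was called when its unadjusted limma p was under 0.01 and its p adjusted over all tested, after Benjamini and Hochberg, under 0.05. Of 29094 probe sets 352 were called, or 1.21%, with 77 higher (0.265%) and 275 lower (0.945%). Among those with 1 symbol 301 were called, 67 higher and 234 lower, which stand for 66 and 228 genes. In each of the 301 the arrays of the groups did not overlap, as was so for 18.4% of all tested probe sets.

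The changes were mostly small. The median size of a called change was 0.33 log2, at 0.28 for the higher and -0.36 for the lower probe sets, against a median of 0.001 over all tested and a median standard error of 0.071. Apart from NCOA1, CRCT1 and GPR180 fell more than 2-fold, and no gene rose that far. A change of at least 1.5-fold was seen in 35 called probe sets, 33 lower and 2 higher. The count of 352 depended on single arrays, with 169 called without NT_V replicate 1, 229 without NT_V replicate 2 and 185 without NT_V replicate 3. It was 201 without siSRC-1_V replicate 2, 230 without siSRC-1_V replicate 3, and 90, of which 86 were among the 352, when only the 6 vehicle arrays entered the fit. In that last fit 55 of the 93 named called probe sets lost their call, among them NCOA6, TGFBR2, FSTL1, IL1RAP, NDRG1, SLC39A8, PSTPIP2, THRB, TAGLN, DUSP7, RRM2B, MET and ID4 (adjusted p of 0.051 to 0.107), each of which kept it whichever single array was omitted.

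**Figure D1:**
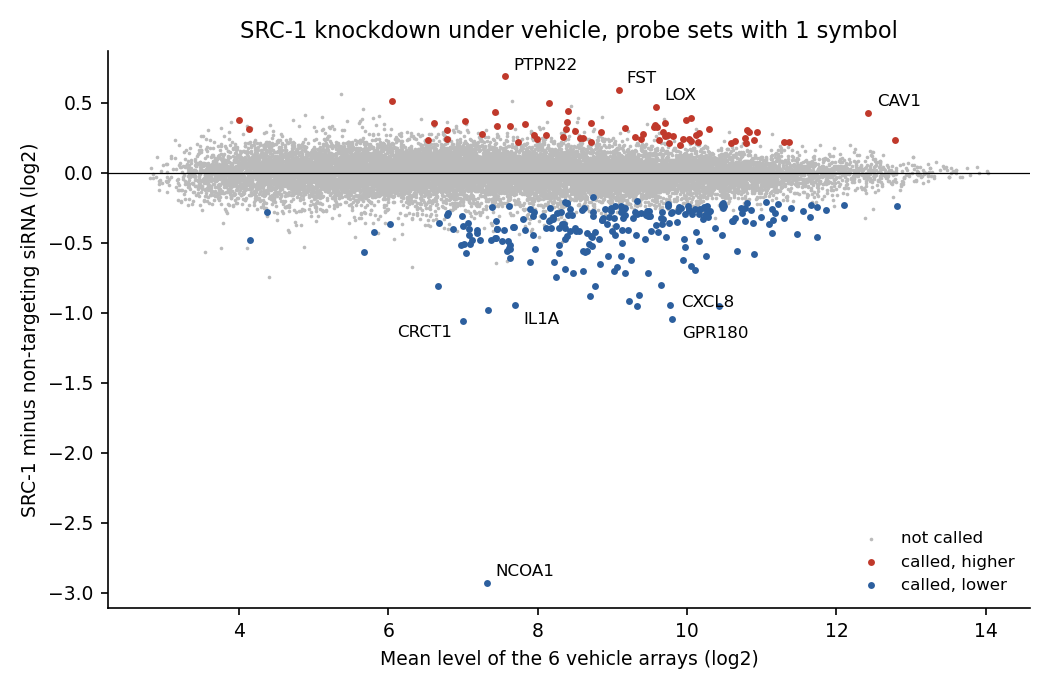
Difference between SRC-1 and non-targeting siRNA under vehicle (vertical axis, log2) against the mean level of the 6 vehicle arrays (horizontal axis, log2) for probe sets with 1 symbol. Grey points were not called, red points were called higher (67) and blue points lower (234), and NCOA1 lies far below the rest at -2.93.

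The 20 lowest called genes kept their call in each of the 12 fits that omit 1 array (leave-one-out fits) and in every other fit tried. Of these 12 fits 6 omit an estradiol array, which leaves the vehicle difference unchanged and alters only the pooled spread. CRCT1, a cysteine-rich protein gene of the epidermal differentiation complex, read 7.58, 7.57 and 7.45 log2 in NT_V and 6.22, 6.63 and 6.59 in siSRC-1_V. It fell 2.08-fold (-1.06 ± 0.15 log2, SE, adjusted p = 0.00497). GPR180, an orphan membrane protein, read 10.27, 10.34 and 10.35 against 9.32, 9.17 and 9.34. Its fall was 2.06-fold (adjusted p = 3.85e-06), and the lowest NT_V array stood well above the highest knockdown array for both genes.

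GPR65, a receptor that senses acid, read 7.81, 7.68 and 8.01 in NT_V and 6.76, 6.93 and 6.86 in siSRC-1_V, a fall of 0.98 log2. MTMR4, a phosphatase of phosphoinositides on endosomes, read 10.88, 10.92 and 10.93 against 9.94, 9.93 and 10.01. In each gene the replicates of a group lay closer to each other than to the other group. NCEH1, which hydrolyses cholesterol esters, fell by 0.88 log2, and GRAMD1B, which moves sterol from the plasma membrane to the endoplasmic reticulum, fell by 0.71. CACNA2D1, an auxiliary subunit of calcium channels, fell by 0.72.

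SS18, a subunit of BAF chromatin remodelling complexes, read 9.20, 9.15 and 9.17 in NT_V and 8.42, 8.31 and 8.36 in siSRC-1_V (-0.81 ± 0.04 log2, adjusted p = 8.91e-06). LIN28B, which blocks maturation of let-7 miRNAs, fell by 0.70 log2, and KLHL5, a Kelch-repeat protein, by 0.95. BCL2A1, an anti-apoptotic BCL2 relative, fell by 0.81 log2 and was the 1 called member of 15 measured in that family. The pseudogene ZNF542P fell by 0.80. For TOR1AIP2, an endoplasmic reticulum partner of torsins, the probe sets disagreed: 7922637 fell by 0.87 log2, while the brighter 7922646 read 0.12 higher and was not called (adjusted p = 0.51).

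**Figure D2:**
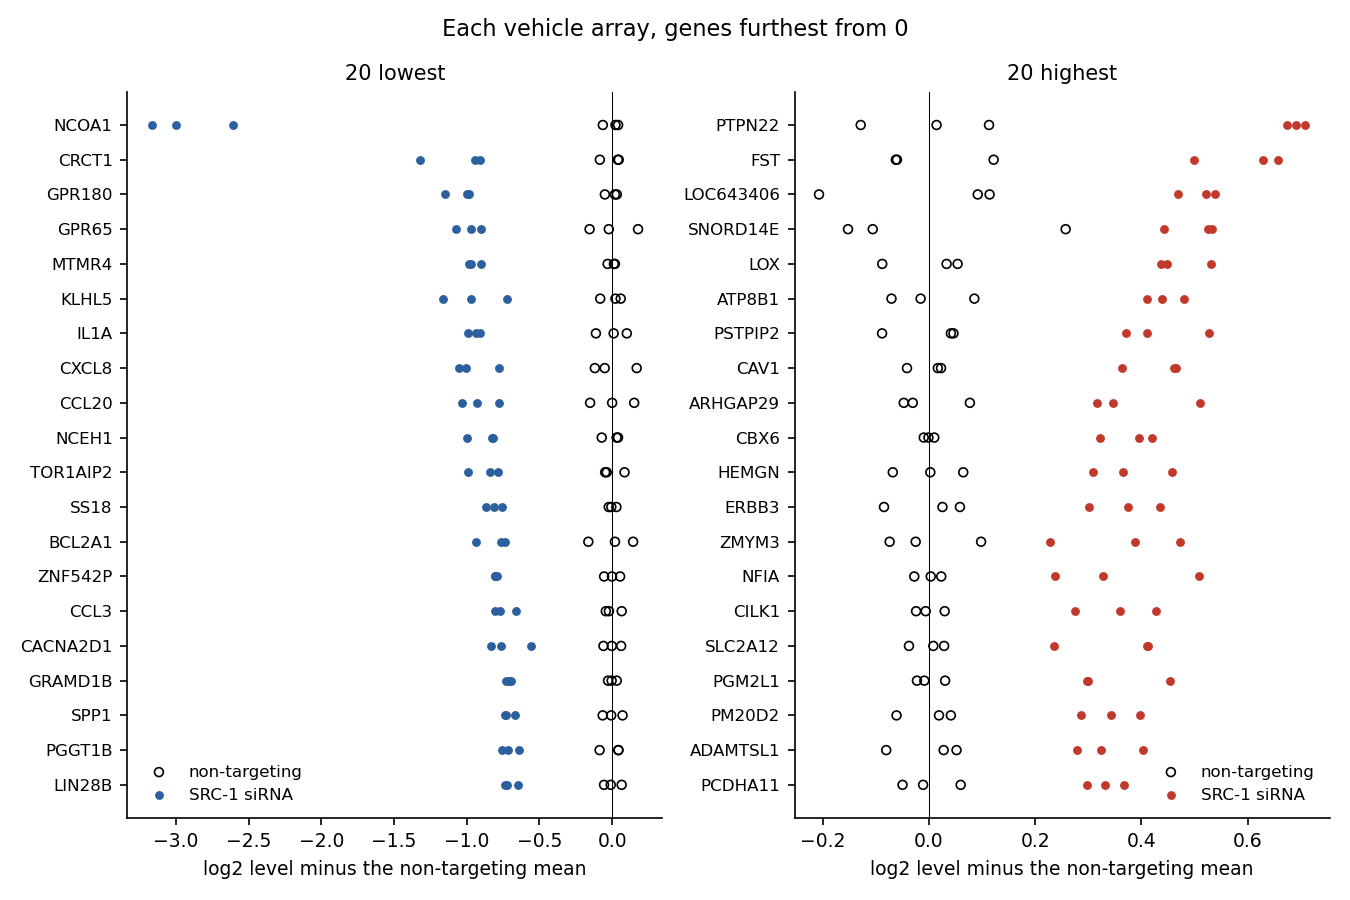
Level in each vehicle array relative to the NT_V mean of the gene (horizontal axes, log2) for the 20 lowest (left) and 20 highest (right) called genes. Open circles are the 3 NT_V arrays and filled circles the 3 siSRC-1_V arrays. They do not overlap in any row, as in every called probe set and as the choice of genes required. The lowest 20 end at LIN28B, and the highest 20 run from PTPN22 at 0.69 to PCDHA11 at 0.33.

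Interleukins and chemokines stood among the largest decreases, with IL1A, CXCL8, CCL20 and CCL3 in the 20 lowest. Of 24 measured interleukins and colony-stimulating factors 5 fell and 0 rose, and of 22 chemokines 3 fell and 0 rose, where 0.945% of all tested probe sets were lower and 0.265% higher. Most members of both lists were not called, and the list medians were -0.04 and 0.002 log2, against 0.001 over all probe sets.

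IL1A, an alarm cytokine of stressed cells, read 8.27, 8.06 and 8.18 log2 in NT_V and 7.23, 7.26 and 7.17 in siSRC-1_V, a fall of 1.93-fold (adjusted p = 0.000134). CXCL8, the neutrophil attractant also called interleukin 8, read 10.42, 10.13 and 10.20 against 9.20, 9.24 and 9.47, a fall of 1.92-fold (adjusted p = 0.00724). CCL20, which attracts CCR6-bearing lymphocytes, read 9.83, 9.53 and 9.68 against 8.64, 8.75 and 8.90, a fall of 1.89-fold (adjusted p = 0.00115). In these 3 genes the highest knockdown array lay more than 0.6 log2 below the lowest NT_V array. CCL3, a macrophage chemokine, fell by 0.75 log2. It has near-identical copies, and 3 probe sets of 1 shared value that carry the symbols CCL3L3, CCL3L1 and CCL3 fell by 0.46, so the copies may not be told apart by hybridisation.

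The other interleukins fell less. IL24, a cytokine of the interleukin 10 family, read 11.22, 11.16 and 11.20 in NT_V and 10.55, 10.52 and 10.77 in siSRC-1_V (-0.58 ± 0.07 log2, adjusted p = 0.00197). LIF, a ligand of gp130 receptors, read 8.73, 8.55 and 8.51 against 8.18, 8.12 and 8.08, a fall of 0.47 log2 (adjusted p = 0.0171). IL11, another gp130 ligand made by bone cells, fell by 0.41 (adjusted p = 0.0122), and IL6, the prototype of that family, by 0.40 (adjusted p = 0.0419), from 7.16, 6.95 and 7.10 to 6.81, 6.68 and 6.52. The 3 gp130 ligands had groups that did not overlap, although the gap was smallest in IL6.

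The calls of these last 3 genes depended on single arrays. LIF was no longer called without NT_V replicate 1 (adjusted p = 0.0771), siSRC-1_V replicate 2 (0.066) or replicate 3 (0.0722), and IL11 without NT_V replicate 3 (0.0605). IL6 lost its call in 8 of the 12 leave-one-out fits, with adjusted p-values of 0.167 and 0.15 without NT_V replicates 1 and 3 and of 0.121 and 0.13 without siSRC-1_V replicates 2 and 3. Of the estradiol arrays, leaving out NT_E replicate 1, 2 or 3 gave it 0.067, 0.0596 and 0.062, and siSRC-1_E replicate 3 gave 0.067. The count of 5 interleukins was 3 without NT_V replicate 1 or 3 or siSRC-1_V replicate 2 or 3, and 2 with only the vehicle arrays. IL1A, IL24, CXCL8, CCL20 and CCL3 were called in every fit tried.

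Related chemokines did not pass the test. CXCL1 had a difference of 0.08 log2 (95% interval -0.05 to 0.20), CXCL2 of 0.01 (-0.24 to 0.25) and CXCL3 of 0.06 (-0.08 to 0.20). CXCL5 had -0.20 (-0.33 to -0.07, adjusted p = 0.161), and CCL2, the monocyte attractant, -0.06 (-0.30 to 0.18). These uncalled genes were chosen for display after their values were seen. CXCL2, at a mean of 4.56 log2 in NT_V, was dimmer than the lower quartile, where a signal is not shown to exceed background.

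**Figure D3:**
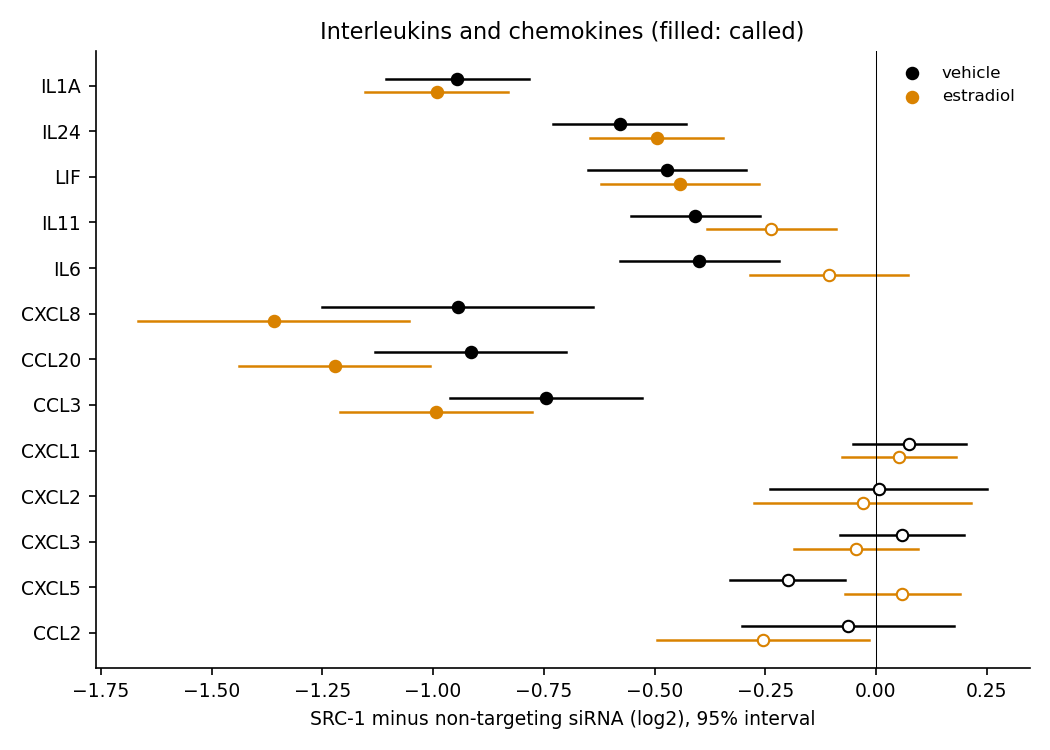
Difference between SRC-1 and non-targeting siRNA (horizontal axis, log2, with 95% intervals) for 13 interleukin and chemokine genes under vehicle (black) and estradiol (orange). Filled points were called; IL1A, IL24, LIF, CXCL8, CCL20 and CCL3 were called under both treatments, IL11 and IL6 under vehicle, and the 5 genes at the bottom under neither.

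Promoter sequences are shown for the 5 called cytokines that hold a motif of NF-kB or AP-1, factors with which SRC-1 is known to act. Of the other called cytokines, CCL3 and IL24 hold neither motif and LIF has no entry in the promoter table. Each run is the 150 bases before the RefSeq start of the gene on GRCh38.p14, read 5′ to 3′ on the gene's strand. Capitals mark matches, on either strand, to a kB-type motif spelled GGNNTTTCC or an AP-1-type motif spelled TGANTCA. The motifs share no letters in these windows.
CXCL8, chr4:73740419-73740568, plus strand: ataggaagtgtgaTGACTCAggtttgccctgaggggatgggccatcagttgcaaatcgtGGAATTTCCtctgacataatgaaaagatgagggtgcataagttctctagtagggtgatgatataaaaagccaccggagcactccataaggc
CCL20, chr2:227813692-227813841, plus strand: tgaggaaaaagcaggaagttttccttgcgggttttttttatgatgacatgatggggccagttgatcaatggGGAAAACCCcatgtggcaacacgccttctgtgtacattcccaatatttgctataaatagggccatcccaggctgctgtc
IL6, chr7:22727050-22727199, plus strand: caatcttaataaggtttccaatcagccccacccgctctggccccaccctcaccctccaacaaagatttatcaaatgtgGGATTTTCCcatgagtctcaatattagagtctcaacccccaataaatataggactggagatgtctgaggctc
IL1A, chr2:112784494-112784643, minus strand: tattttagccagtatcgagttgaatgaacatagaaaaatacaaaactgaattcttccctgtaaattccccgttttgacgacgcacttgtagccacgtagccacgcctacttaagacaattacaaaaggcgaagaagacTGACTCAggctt
IL11, chr19:55370464-55370613, minus strand: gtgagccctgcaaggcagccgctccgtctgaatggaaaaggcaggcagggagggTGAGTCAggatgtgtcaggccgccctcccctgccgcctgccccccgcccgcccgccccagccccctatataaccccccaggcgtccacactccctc

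CXCL8 holds both motifs, with the kB-type match starting 91 and the AP-1-type match 137 bases before the start. The kB-type match of CCL20 starts 79 and that of IL6 72 bases before it. IL1A and IL11 hold AP-1-type matches starting 12 and 96 bases before the start. A further AP-1-type match of IL1A begins 38 bases after the start, beyond the printed run. The promoters of CCL3 and IL24 were searched over the whole window of 250 bases before to 50 after the start.

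Over that window the motifs were counted in the promoters of 14237 measured genes. The kB-type motif was in 6.60% of all of them, in 13.1% of those called lower (24 of 183) and in 3.57% of those called higher (2 of 56). The AP-1-type motif was in 5.58%, 11.5% and 7.14%. Of the interleukins, colony-stimulating factors and chemokines with a promoter, 3 of the 7 called lower held a kB-type motif. So did 8 of the 24 not called, including CXCL1, CXCL2, CXCL3, CXCL5 and CXCL6. An AP-1-type motif was held by 3 of the 7 and by 5 of the 24. A match describes the letters and not whether a factor binds there.

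Few components of the pathways around these cytokines were called. Of 23 NF-kB pathway genes NFKB2, which encodes the p100 precursor of p52, was the 1 called, at -0.32 log2 (median of the list -0.01). Its call was lost without NT_V replicate 1 or 3 or siSRC-1_V replicate 2, where adjusted p-values ran from 0.0506 to 0.0693. Of 12 AP-1 subunits none was called by limma, and the list median was -0.05 log2. An unadjusted p under 0.05 was seen in 2, both higher, and FOSL1 and FOSL2, the brightest, differed by -0.01 and -0.04.

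Of 28 cytokine receptors 3 fell. TNFRSF11B, the decoy receptor osteoprotegerin that restrains bone resorption, read 9.06, 8.99 and 9.13 in NT_V and 8.57, 8.50 and 8.68 in siSRC-1_V (-0.48 ± 0.06 log2, adjusted p = 0.00175). IL1RAP, the shared chain of interleukin 1 receptors, fell by 0.38, and IL6R, the receptor of IL6, by 0.28, of which the IL6R call was lost without NT_V replicate 1 or 3 or siSRC-1_V replicate 1 or 2 (adjusted p of 0.0512 to 0.0761). ICAM1, an adhesion molecule for leukocytes, fell by 0.51 log2, from 8.98, 8.94 and 8.91 to 8.40, 8.41 and 8.51. Prostaglandin synthesis and interferon-stimulated genes had 0 of 15 and 0 of 40 called by limma, with 1 and 6 at an unadjusted p under 0.05.

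The TGF-beta and activin pathway held the most called members of any list, with 6 of 25 lower and 1 higher and a median of -0.12 log2. Over all tested probe sets 0.945% were lower and 0.265% higher. As the lists were chosen with earlier results of these data known, this rank is not read as a result about the pathway. TGFBI, a secreted matrix protein named for its induction by TGF-beta, read 8.96, 8.96 and 8.88 in NT_V and 8.35, 8.33 and 8.44 in siSRC-1_V (-0.56 ± 0.06 log2, adjusted p = 0.000677). INHBA, the subunit of activin A, read 10.99, 10.88 and 10.99 against 10.37, 10.29 and 10.53, a fall of 0.56. FST, the secreted antagonist that binds activin, moved the other way, from 8.91, 8.72 and 8.72 to 9.41, 9.28 and 9.44 (0.60 ± 0.06 log2, adjusted p = 0.00103). INHBA and FST thus changed in opposite directions, while the follistatin relatives FSTL1 and FSTL3 fell with INHBA. The groups did not overlap in these genes, as in every called probe set.

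The receptor TGFBR2 fell by 0.36 log2 (adjusted p = 0.0069), the follistatin relatives FSTL1 and FSTL3 by 0.32 and 0.33, and the ligand TGFB1 by 0.28. FSTL3 lost its call without NT_V replicate 1 or 2 or siSRC-1_V replicate 2, at adjusted p-values of 0.0663 to 0.0767. TGFB1 lost it without any 1 of the NT_V arrays or siSRC-1_V replicate 2 or 3, at 0.0515 to 0.0719. With only the vehicle arrays in the fit, 2 of the 6 decreases were called. Of 19 genes of the related BMP pathway 2 rose, ID4, an inhibitor of basic helix-loop-helix factors, by 0.31 log2 and NOG, the antagonist noggin, by 0.24. ID4 was called in all 12 leave-one-out fits and NOG in 2 of them, and with only the vehicle arrays neither was (0.107 and 0.176).

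Of 30 matrix proteases and inhibitors 3 fell and 1 rose, with a list median of -0.02 log2. PLAU, the urokinase that activates plasminogen, read 10.37, 10.40 and 10.38 in NT_V and 9.64, 9.76 and 9.76 in siSRC-1_V (-0.66 ± 0.06 log2, adjusted p = 0.000294). Its receptor PLAUR fell by 0.29 and ADAM19, a membrane-bound metalloprotease, by 0.24, while MMP3, the protease stromelysin-1, rose by 0.24. Those 3 calls were lost in 6, 5 and 10 of the 12 leave-one-out fits, and those of PLAUR and MMP3 whichever vehicle array was omitted. PLAU was the 1 decrease of the list called without NT_V replicate 1 or 3, without any 1 siSRC-1_V array or with only the vehicle arrays.

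Of 38 collagens and matrix proteins LOX rose and LAMB3 fell. LOX, which crosslinks collagen, read 9.39, 9.41 and 9.27 against 9.89, 9.79 and 9.80 (0.47 ± 0.05 log2, adjusted p = 0.000732). LAMB3, a chain of laminin-332, fell by 0.42. Of 17 integrin genes ITGA5, a chain of the fibronectin receptor, fell by 0.21 log2, a call that was lost in 11 of the 12 leave-one-out fits.

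Osteoblast genes had 3 of 16 members lower and 0 higher, with a median of -0.01. SPP1, the bone matrix protein osteopontin, read 9.91, 9.77 and 9.83 in NT_V and 9.17, 9.10 and 9.11 in siSRC-1_V, a fall of 1.64-fold (adjusted p = 0.000541). ALPL, the alkaline phosphatase needed for mineral deposition, fell by 0.23 log2, and TNFRSF11B is described above. The call of ALPL was lost in 7 of the 12 leave-one-out fits. The bone collagen COL1A1, at -0.11 log2, and RUNX2, the transcription factor of osteoblasts, at 0.17, were not called (adjusted p = 0.444 and 0.598).

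Metabolic and stress genes gave scattered decreases. Of 30 glycolysis and hypoxia genes 4 fell, led by SLC2A3, a glucose carrier, from 11.72, 11.66 and 11.69 to 11.22, 11.24 and 11.31 (-0.44 ± 0.06 log2, adjusted p = 0.00426). NDRG1, a hypoxia-induced gene, fell by 0.25, BNIP3L, a mitophagy receptor, by 0.27 and ENO2, an enolase, by 0.25. The 4 were 2 without NT_V replicate 2 or 3 or siSRC-1_V replicate 2 or 3, and 1 with only the vehicle arrays.

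Of 32 NRF2 targets and antioxidant genes 3 fell and 0 rose. HMOX1, which degrades heme, read 10.67, 10.68 and 10.71 in NT_V and 10.22, 10.25 and 10.26 in siSRC-1_V, a fall of 0.44 log2 (adjusted p = 0.00161). NQO1, a quinone reductase, fell by 0.35 and SRXN1, a sulfiredoxin, by 0.25. Of 31 genes of the ATF4 and unfolded protein response PSAT1, an enzyme of serine synthesis, fell by 0.45 and the lipoprotein receptor VLDLR by 0.36. SRXN1 and PSAT1 each lost the call in 4 of the 12 leave-one-out fits, and VLDLR without NT_V replicate 1 (adjusted p = 0.0519). Of 23 amino-acid and glucose carriers 2 fell, SLC2A3 as above and SLC39A8, a metal ion carrier, by 0.46, and SLC2A12, another glucose carrier, rose by 0.35, the last called in 7 of the 12.

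Signalling genes had few called members. THRB, the thyroid hormone receptor beta, fell by 0.44 log2 (adjusted p = 0.00426) and NR4A3, an orphan receptor induced by growth signals, by 0.34, as the 2 of 28 nuclear receptor genes called. CCN1, a matricellular protein, fell by 0.34 and TAGLN, an actin-binding protein, by 0.48, as the 2 of 24 YAP and SRF targets called. DUSP7, a phosphatase of MAP kinases, fell by 0.31, as the 1 called of 19 MAP kinase brakes. RRM2B, the ribonucleotide reductase subunit induced by p53, fell by 0.29, as the 1 called of 25 p53 targets. Of 35 growth factor ligands and receptors 2 were called higher and 0 lower, with a list median of -0.03 log2. In that list 11 had an unadjusted limma p under 0.05, 4 higher and 7 lower. MET, the receptor of hepatocyte growth factor, rose by 0.31 log2, from 10.64, 10.61 and 10.68 to 10.92, 10.95 and 10.99, and ERBB3, the neuregulin receptor, by 0.37. Leaving out NT_V replicate 3 ended the NR4A3 call (adjusted p = 0.0508). Leaving out NT_V replicate 1 ended those of CCN1 (0.0658) and ERBB3 (0.0592), as did siSRC-1_V replicate 2 for CCN1 (0.0541) and replicate 3 for ERBB3 (0.0508). With only the vehicle arrays none of these 8 genes was called: adjusted p-values were 0.0548 for THRB, 0.0553 for DUSP7, 0.0696 for MET, 0.0722 for TAGLN and 0.0865 for RRM2B.

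Of 23 genes linked to vessels 2 were called lower and 0 higher. The list median was -0.003 log2, and ESM1, at 0.39, was not called. MYCT1, a membrane protein of endothelial cells, fell by 0.59 log2, from 10.60, 10.44 and 10.60 to 9.82, 9.98 and 10.06, and EDN1, the vasoconstrictor endothelin 1, by 0.45. Both kept their calls in all 12 leave-one-out fits.

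Of the Notch pathway JAG1, a ligand, and NOTCH2, a receptor, fell by 0.28 and 0.26. IGFBP4, which binds IGF and is also an estrogen-induced gene in breast cancer cells, and IGF1R, the IGF receptor, fell by 0.28 and 0.22. C1S, a protease of the complement cascade, fell by 0.36 and PROCR, the protein C receptor, by 0.29. LRRC4C, a synaptic adhesion protein, fell by 0.26, DICER1, the nuclease that makes miRNAs, by 0.24, and KLF11, a Krüppel-like factor, rose by 0.21. None of these 9 kept its call in all 12 leave-one-out fits: PROCR kept it in 9, NOTCH2 and C1S in 8, KLF11 and IGF1R in 7, JAG1 in 6, and IGFBP4, LRRC4C and DICER1 in 2. The losses of PROCR, NOTCH2, C1S, KLF11, IGF1R and JAG1 all came from omitting a vehicle array. JAG1 and IGFBP4 lost the call whichever vehicle array was omitted. A second probe set of IGF1R, 7986383, was not called (adjusted p = 0.762).

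**Figure D4:**
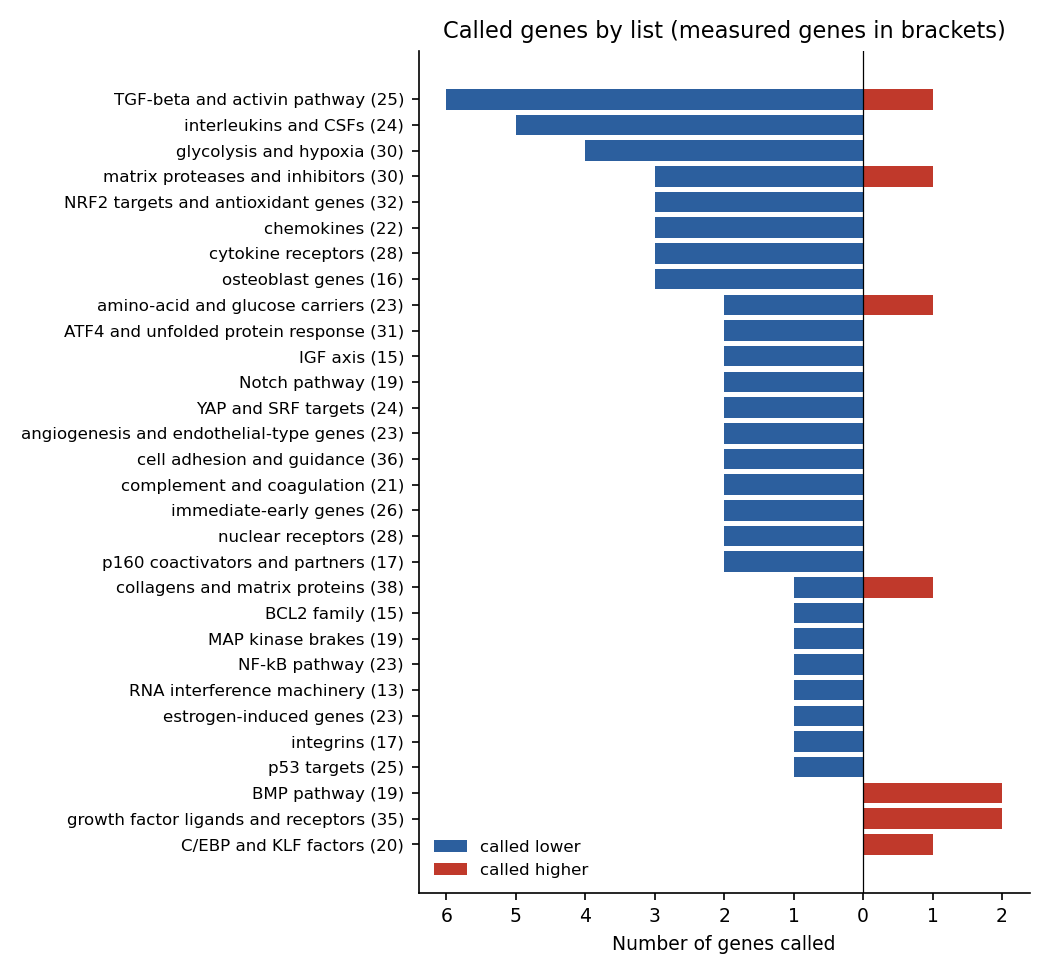
Number of genes called lower (blue, left of 0) and higher (red, right of 0) in each of the 30 lists with a called gene, with the number of measured genes in brackets. Most are decreases, led by the TGF-beta and activin pathway with 6 and the interleukins with 5.

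Across all 48 lists 1031 genes were measured, 55 called lower and 9 higher, with a median of -0.003 log2. The lists were chosen with earlier results known, so this share is not set against the 1.21% of all tested probe sets as a result. In 18 lists limma called none. Of 44 genes of G1/S and DNA replication and 40 of G2/M and mitosis 3 each had an unadjusted p under 0.05, and none was called. Of the brightest members of each, CDK4 differed by 0.02, CCND2 by 0.09 and CDC20 by 0.02 log2. CKS1B read 12.45, 12.45 and 12.37 in NT_V and 12.32, 12.29 and 12.34 in siSRC-1_V, a difference of -0.11 with no overlap that did not pass the test (adjusted p = 0.314). The 22 heat-shock genes (HSPA8 at -0.01), the 32 of the Wnt pathway (CTNNB1 at 0.003) and the 25 of cholesterol synthesis (HMGCS1 at 0.07) had 4, 4 and 2 at an unadjusted p under 0.05. Circadian clock genes had the highest list median of those with 0 called, at 0.11 log2 over 16, with 5 at an unadjusted p under 0.05, all 5 higher.

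Fewer genes rose, and by less. PTPN22, a tyrosine phosphatase known from lymphocytes, read 7.09, 7.33 and 7.23 log2 in NT_V and 7.93, 7.91 and 7.89 in siSRC-1_V, a rise of 1.61-fold (adjusted p = 0.00567). CAV1, the coat protein of caveolae, read 12.17, 12.23 and 12.24 against 12.68, 12.68 and 12.58 (0.43 ± 0.05 log2, adjusted p = 0.00125). CBX6, a Polycomb protein, read 9.80, 9.79 and 9.78 against 10.12, 10.19 and 10.21. PTPN22, FST, LOX, CAV1 and CBX6 were called in every fit tried. Their groups did not overlap, as in every called probe set and as their choice required.

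PSTPIP2, an actin-binding F-BAR protein, rose by 0.44 log2 and ATP8B1, a phospholipid flippase, by 0.44. ARHGAP29, a GTPase-activating protein, rose by 0.39, NFIA, a nuclear factor I family member, by 0.36 and ZMYM3, a zinc finger protein, by 0.36. SNORD14E, a small nucleolar RNA, rose by 0.50, but NT_V replicate 1 at 8.16 stood apart from replicates 2 and 3 at 7.75 and 7.80. The call was kept in 3 of 12 leave-one-out fits for SNORD14E, 5 for ZMYM3, 4 for NFIA, 10 for ATP8B1 and 11 for ARHGAP29. Of 199 small nucleolar RNA probe sets 2 were called higher and 0 lower.

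The rest of the 20 highest rose by 0.33 to 0.51 log2. They were LOC643406, HEMGN, CILK1, SLC2A12, PGM2L1, PM20D2, ADAMTSL1, ERBB3 and PCDHA11, and none of these 9 kept its call in all 12 leave-one-out fits. HEMGN, with means of 3.81 in NT_V and 4.19 in siSRC-1_V, was dimmer than the lower quartile. The other probe set of ADAMTSL1, 8154512, was not called (adjusted p = 0.982).

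The same siRNA contrast was made in estradiol-treated cells, where effects of less NCOA1 and other effects of the pool cannot be told apart either. This contrast uses the other 6 arrays, but it shares the siRNA pools, the deposited processing and the estimate of the spread. It called 524 probe sets, 1.8% of those tested, 441 of them with 1 symbol. Of the 301 called under vehicle 186 were called there too, which is 61.8% of the vehicle and 42.2% of the estradiol calls, and all 186 had the same sign. The mean deviation of 4203 probe sets taken as controls overlapped between the vehicle groups, at -0.12 to -0.04 in NT_V and -0.16 to -0.02 in siSRC-1_V. Under estradiol it did not, at -0.003 to 0.07 in NT_E and 0.09 to 0.18 in siSRC-1_E, and with it as a covariate 121 probe sets were called under estradiol.

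Most differences had the same sign under estradiol. Of the 234 lower probe sets 233 had a negative difference under estradiol, with a median of -0.30, and of the 67 higher ones 63 had a positive difference, with a median of 0.23. All of the 20 lowest genes were also called under estradiol, and 9 of the 20 highest. BCL2A1 fell by 0.81 log2 under vehicle and by 1.36 under estradiol, where NT_E arrays read 7.24, 7.23 and 7.36 and siSRC-1_E arrays 5.82, 6.11 and 5.82. CXCL8 fell by 0.94 and 1.36, and CCL20 by 0.91 and 1.22. NCOA1 itself fell by 2.93 under vehicle and fell by 2.21 under estradiol, which left 13.2% and 21.5% of the non-targeting level, and GPR180 fell by 1.05 and 0.74. In 212 of the 301 the difference was smaller in size under estradiol, as the choice of probe sets by their vehicle difference favours. The change between treatments passed the test for none of these 5 genes (limma adjusted p of 0.442 to 0.703).

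PTPN22, FST and LOX rose under vehicle and were not called under estradiol. FST read 10.46, 10.40 and 10.33 in NT_E and 10.35, 10.39 and 10.35 in siSRC-1_E, and LOX 10.55, 10.55 and 10.54 against 10.63, 10.62 and 10.59. PTPN22 read 7.42, 7.22 and 7.68 against 7.51, 7.48 and 7.40. The difference between the effects was -0.67 log2 for PTPN22 (95% interval -0.97 to -0.36), -0.64 for FST (-0.83 to -0.44) and -0.40 for LOX (-0.55 to -0.26), each at a limma adjusted p of 0.392. Over all 29094 probe sets limma called 0 differences between the effects, with 2102 at an unadjusted p under 0.05, and with a trended and robust variance it called FST and LOX.

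**Figure D5:**
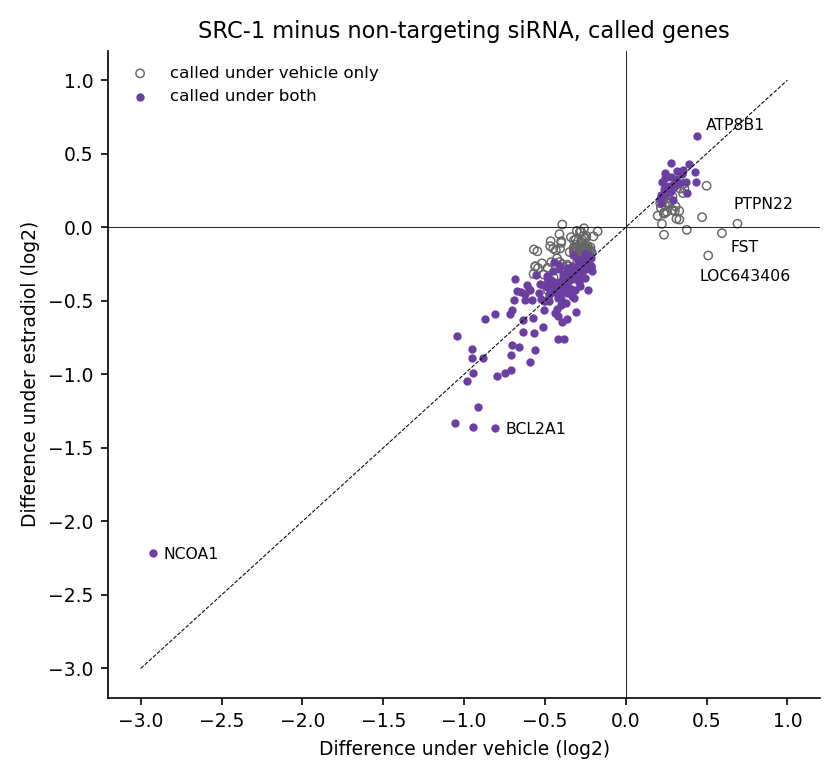
Difference between SRC-1 and non-targeting siRNA under estradiol (vertical axis, log2) against that under vehicle (horizontal axis, log2) for the 301 probe sets called under vehicle. Filled points (186) were also called under estradiol, the dashed line marks equal differences, and PTPN22, FST and LOC643406 lie near or below 0 on the vertical axis.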

How the data were processed

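The deposited table holds log2 expression values for the probe sets of 12 arrays. Per the design text, the authors processed the array files with the affy package and tested with limma. Neither version nor the background correction and normalization are given in the sources used here. Of 33297 probe sets, 4203 with identifiers below 7896740 were taken as controls and left out, inferred from the identifiers. Of 29094 tested, 7880 carry no symbol and 1754 several. Several probe sets exist for 769 of the 18417 symbols. The one with the highest mean stands for a gene in lists. Some probe sets of copied genes hold identical values. Entrez identifiers matched the RefSeq table for 19429, with 0 symbols changed. The values come with no genome build.

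With limma 3.58.1 (R 4.3.3), group means were estimated over the 12 arrays with moderated variances (8 degrees of freedom from the residuals and 3.15 from the prior). Tests are two-sided, with the thresholds of the design text. Arrays have no depth, and their number limits the precision. Named genes are NCOA1, NCOA2, NCOA3 and ESR1, the 20 highest and 20 lowest called with groups that do not overlap, every called member of 48 lists, and up to 2 members of highest mean where a list had none. The markers and the uncalled chemokines are named beyond this rule. The members and lists were chosen with earlier results of these data known. Alternatives were a replicate block, other samples, filters, scalings, variances and thresholds, array weights, a control covariate and each array left out. On simulated data for the knockdown under vehicle, with 200 of 29094 probe sets changed, the fit found 46% of changes of 0.3 log2, 90% of 0.5, 92% of 0.7 and 100% of 1, with 9 false calls of 173. The simulated noise was normal with the fitted variances and independent between probe sets and arrays. These rates need not hold for the real arrays. RefSeq promoters on GRCh38.p14 matched 14237 of 18417 genes.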

Additional observations from a re-analysis of the deposited data

Results flagged for a closer look

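LOC643406, a gene without a settled function, was higher with SRC-1 siRNA in every vehicle array and lower in every estradiol array. It read 5.89, 5.91 and 5.59 log2 in NT_V, 6.27, 6.34 and 6.32 in siSRC-1_V, 6.23, 6.15 and 6.27 in NT_E and 6.15, 5.87 and 6.06 in siSRC-1_E, where the highest siSRC-1_E value and the lowest NT_E value lay 0.0049 log2 apart. The difference between the effects was -0.70 log2 and did not pass the test (limma adjusted p = 0.392). Its call under vehicle was lost without siSRC-1_V replicate 1 (adjusted p = 0.0509), 2 (0.0765) or 3 (0.0707).

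Some probe sets outside those with 1 symbol were called too, where 1.21% of all tested probe sets were called. Called under vehicle were 30 of the 7880 without a gene symbol, of which 8116418 fell by 1.06 log2, and 21 of the 1754 with several symbols. The latter include pairs for the beta-defensin copies DEFB107A and DEFB107B (-0.89), DEFB105A and DEFB105B (-0.71) and DEFB103A and DEFB103B (-0.57), where the members of a pair hold the same values. Of the 4203 probe sets taken as controls 10 met the same threshold in limma, 5 of them higher, with 365 at an unadjusted p under 0.05.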

How the results depend on the processing

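None of the 93 named called probe sets changed sign, 37 were called in every fit and 50 in every fit that left out 1 array. Because the arrays of the groups did not overlap in any called probe set, leaving out 1 array could not change a sign. Settings that alter only the variance or the filter leave the difference as it was. Leaving out 1 array gave 169 to 338 called probe sets under vehicle, 25 to 72 higher and 144 to 268 lower. Of the 93, calls lost were 35, 25 and 34 without NT_V replicates 1, 2 and 3, and 29, 30 and 24 without siSRC-1_V replicates 1, 2 and 3. With only the vehicle arrays 90 were called, 9 higher and 81 lower, so that 90% rather than 78.1% were decreases, and 55 of the 93 calls were lost. Without the lowest 40% of probe sets by mean 728 were called (220 higher, 508 lower), with a trended and robust variance 857 (257 and 600), at an adjusted p under 0.01 145 (17 and 128), and at 1.5-fold or more 41 (3 and 38). Median centring gave 47 higher, and testing probe sets with 1 symbol only gave 120 higher. Under estradiol the trended and robust variance called 1246 (597 higher, 649 lower) and the control covariate 121 (14 and 107). The difference of the effects had 2 called with the trended and robust variance, both lower. With a replicate block 327 were called under vehicle, 293 of them among the 352. Deviations of same-numbered vehicle arrays correlated at 0.172, 0.187 and -0.007 for replicates 1, 2 and 3. Replicate 1 of NT_V against 2 of siSRC-1_V gave -0.172, and 2 against 1 gave -0.191. The numbers were not taken as pairs in the main fit, and whether equal numbers mark a shared preparation was not tested. The causes of these changes were not tested. Signal over background was not measured, so differences of dim probe sets are not exact. A promoter window of 250 bases moved the kB-type share of all genes from 6.60% to 5.85% and the AP-1-type share from 5.58% to 4.91%. Among genes called lower the kB-type share moved from 13.1% to 12.6% and the AP-1-type share from 11.5% to 8.74%. Among genes called higher the kB-type share stayed at 3.57% and the AP-1-type share moved from 7.14% to 5.36%.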

Other observations

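Outside the fixed lists, IGKC, the constant region of immunoglobulin kappa, has 13 probe sets with 1 symbol, of which 4 were lower under vehicle, at -0.54 to -0.41 log2. The same number was called under estradiol. This gene was chosen after its values were seen, and which transcript these probe sets read in bone cells was not tested. Olfactory receptor genes, with 360 probe sets whose mean levels had a median of 4.68 log2, had 1 called, OR9A4, and a median difference of -0.03.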
